A study of Taeniopygia guttata with 2 samples.

Results

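SOX10-positive cells were barcodes of zebra finch gonad libraries with at least 2000 UMIs (RNA molecules, each counted once), at least 200 detected genes and at least 2 UMIs of SOX10, a transcription factor of neural crest cells and of the glia that they form. They numbered 78 of 17054 cells, 43 of 7593 in the female and 35 of 9461 in the male library. They were set against 229 cells (124 female, 105 male) with at least 5 UMIs of CHGA, TH and STMN2 together and at most 1 UMI of SOX10, named CHGA/TH/STMN2 cells here, and against the 16747 cells that met neither rule. CHGA encodes chromogranin A of secretory granules, TH the first enzyme of catecholamine synthesis and STMN2 a microtubule regulator of neurons. Both groups were thus chosen by the UMIs of these 4 genes, whose values are a description and were not tested.

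Whole gonads of untreated Taeniopygia guttata embryos, 7 of each sex at Hamburger and Hamilton (HH) stage 28, were combined into a female and a male pool, and each gave 1 single-cell library on the 10× Chromium system. The embryos of a pool cannot be told apart, and a difference between the sexes cannot be told apart from a difference between the libraries. For comparisons between cell groups the UMIs of each group were summed within each library, and the 2 libraries were the replicates (n = 2 per group). The p-values therefore measure only the spread between these 2 pools. That spread was estimated over all 3 cell groups together, not from the SOX10-positive cells alone.

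Neural crest cells leave the dorsal neural tube, migrate through the embryo and form, in the trunk, the autonomic neurons, the chromaffin cells of the adrenal gland, Schwann cells and melanocytes. SOX10 is kept in migrating crest cells and in Schwann cell precursors, and it is lost where these cells become neurons or chromaffin cells. In birds, crest cells of the sympathoadrenal lineage gather beside the dorsal aorta, close to the developing gonads.

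The female library held 98701138 UMIs over all its barcodes and the male one 124217899. SOX10-positive cells had a median of 17294 UMIs in female and 15580 in male cells, against 11858 and 11678 for CHGA/TH/STMN2 cells and 9074.5 and 8985 for all other cells. Among all cells, 18 barcode sequences occurred in both libraries, and 1 SOX10-positive cell, of the female library, carried one of them. No doublets were removed. None of the 78 cells met the marker rules for germ, endothelial, macrophage or erythrocyte cells, which 2331 of the 16747 other cells met. These rules do not cover epithelial, interstitial, supporting or steroidogenic cells, so they could not show doublets with those types. The hemoglobin UMIs allowed free RNA, which leaks from broken cells, a share of at most 1.90% of the UMIs of female and 2.32% of those of male SOX10-positive cells.

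SOX10-positive cells were 0.566% of female cells, with a 95% exact binomial interval from 0.410 to 0.762, and 0.370% of male cells, with one from 0.258 to 0.514. Both intervals overlapped, and they and all other intervals given here cover counting error only. A single SOX10 UMI was seen in 0.190% of 526 cells with endothelial markers (median 12057.5 UMIs) and in 0.418% of 1197 cells with germ cell markers (median 17139 UMIs), types that should lack SOX10. Among all other cells, which had a median of 9034 UMIs, the share was 0.388%. The intervals of these shares overlapped, and no cell with endothelial or germ cell markers had 2 SOX10 UMIs. That allows a share of up to 0.570% in cells with endothelial markers and 0.251% in cells with germ cell markers (3 cells of the total).

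Female cells held between 2 and 20 SOX10 UMIs each (median 6), and male cells between 2 and 13 (median 5). Summed over its cells, SOX10 reached 376 CPM (counts per 1000000 UMIs of those cells) in the female library, and the male library had 370 CPM. No SOX10-positive cell reached the CHGA, TH and STMN2 minimum, which allows a share of up to 6.98% in female and 8.57% in male cells. The highest sum of the 3 genes was 2 UMIs, and 71 of the 78 cells had none. Conversely, none of the 229 CHGA/TH/STMN2 cells had a SOX10 UMI.

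**Figure D1:**
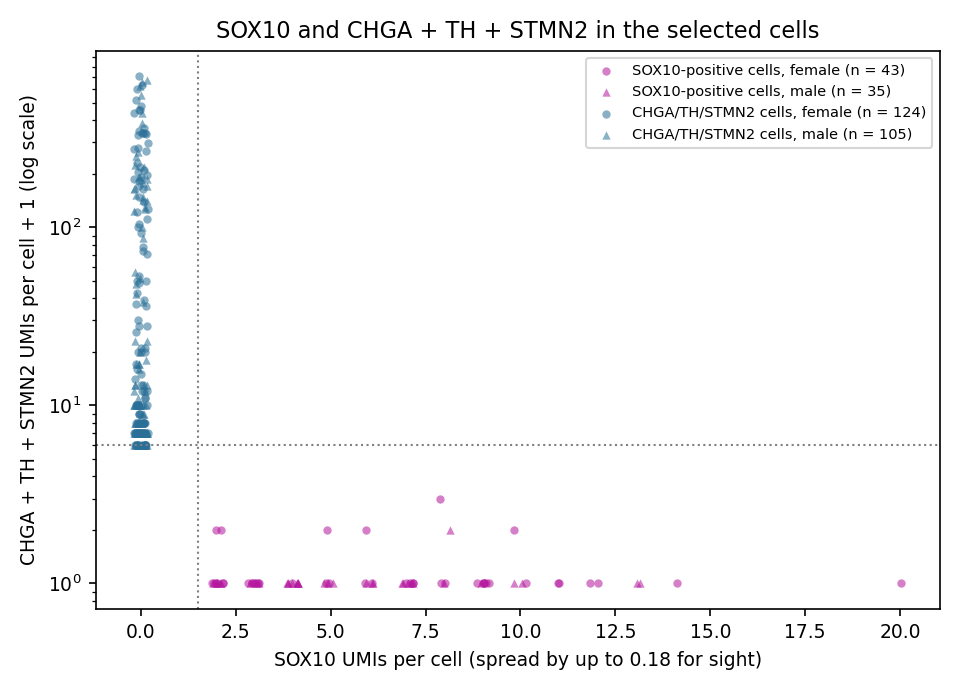
SOX10 UMIs per cell (horizontal axis, points spread sideways for sight) against the sum of CHGA, TH and STMN2 UMIs plus 1 (vertical log axis) in SOX10-positive and CHGA/TH/STMN2 cells, with circles for the female and triangles for the male library and dotted lines at the minimums. All 78 SOX10-positive cells lie at a sum of 2 UMIs or less, and all 229 CHGA/TH/STMN2 cells lie at 0 SOX10 UMIs.

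The minimum of 2 SOX10 UMIs passed through a range of cells. The 65 cells with exactly 1 SOX10 UMI, just outside, had 327 CPM of EDNRB, the endothelin receptor B of crest cells, while the 13 cells with 2 SOX10 UMIs had 1963 CPM, the 26 cells with 3 to 5 had 2565 CPM and the 39 cells with 6 or more had 2693 CPM. SOX8, a relative of SOX10, gave 42.3, 252, 357 and 353 CPM in the same order. Median depth also went up over these bins, with 10561, 12033, 15695.5 and 17545 UMIs per cell. COL1A2, a collagen of interstitial cells, was at 178 CPM with 1 SOX10 UMI, 176 CPM with 2, 34.2 CPM with 3 to 5 and 29.3 CPM with 6 or more. The bin of 2 UMIs thus carried both high EDNRB and the COL1A2 level of the cells outside.

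Most of the cells with 1 SOX10 UMI had no EDNRB UMI (45 of 65), but 8 had 5 or more. Of the 78 SOX10-positive cells, 69 had at least 20 EDNRB UMIs, with a median of 41.5. The 4 with 1 or none all had exactly 2 SOX10 UMIs, and 3 of these were male. Among the cells with no SOX10 UMI at all, 11 had 20 or more of EDNRB.

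**Figure D2:**
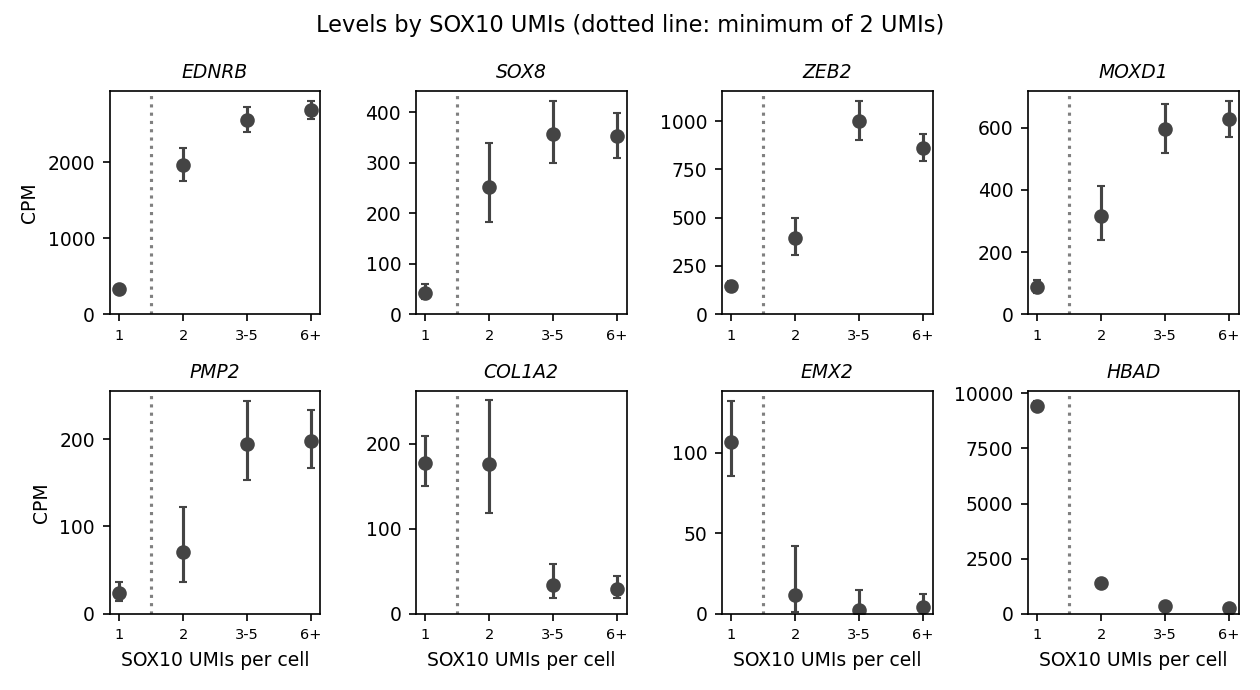
Levels of 8 genes in CPM (vertical axes) in the 65, 13, 26 and 39 cells with 1, 2, 3 to 5 and 6 or more SOX10 UMIs (horizontal axes), both libraries together, with 95% exact Poisson intervals. EDNRB is at 327 CPM left of the dotted line and at 1963, 2565 and 2693 CPM right of it, and COL1A2 is at 178 and 176 CPM in the first 2 bins and at 34.2 and 29.3 CPM in the last 2.

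The CHGA/TH/STMN2 cells were a mixture. In 69 of them the sum was 50 UMIs or more, up to 706, in 18 it lay between 20 and 49, and in 142 between 5 and 19. The 142 had 21.8 CPM of CHGA, 36.4 CPM of PHOX2A, a regulator of autonomic neurons, and 121 CPM of EMX2, a gene of the gonadal epithelium. In the 69 cells the levels were 8670 CPM of CHGA, 932 CPM of PHOX2A and 8.21 CPM of EMX2. The rule at 5 UMIs thus also took up many cells with a gonadal profile, and the 69 cells, chosen after the data were seen, are given beside values whose call or direction they changed.

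Of 10073 genes tested, 966 (9.59%) were higher and 1246 (12.4%) lower in SOX10-positive than in CHGA/TH/STMN2 cells by edgeR's quasi-likelihood test, taking an adjusted p (Benjamini-Hochberg) up to 0.05. Against all other cells 1275 (12.7%) were higher and 1376 (13.7%) lower. Against the 69 cells with a sum of 50 or more, 1062 of 8685 genes (12.2%) were higher and 1263 (14.5%) lower. The scaling moved this split. When library sizes replaced TMM, the median log2 fold change of all genes shifted by -0.17 and -0.21, and the counts became 683 higher and 1660 lower against CHGA/TH/STMN2 cells and 838 higher and 1932 lower against all other cells.

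Genes of the crest and of Schwann cell precursors were mostly higher in SOX10-positive cells. Of the 34 genes in this list, 26 were in the files and 21 were tested, and 14 were higher and 5 lower than in CHGA/TH/STMN2 cells, with a median log2 fold change of 3.47 against -0.09 for all genes. Against all other cells 15 were higher and 1 lower, with a median of 3.52 against -0.07 for all genes. Against the 69 cells with the higher sum 14 of 20 tested genes were higher and 4 lower. Of all genes, 9.59% were higher and 12.4% lower in the first comparison. The shares were 12.7% and 13.7% in the second and 12.2% and 14.5% in the third.

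FOXD3 and TFAP2A, transcription factors of premigratory and migrating crest cells, were both raised. FOXD3 was at 22.9 CPM in female and 49.6 CPM in male SOX10-positive cells, against 0 UMIs in both libraries of CHGA/TH/STMN2 cells and 0.0530 CPM in all other cells. Its level was at least 33.4-fold higher than in CHGA/TH/STMN2 cells, taken against 3 UMIs over that group (adjusted p = 0.0064), and FOXD3 UMIs were seen in 30 of the 78 cells. TFAP2A was at 214 and 164 CPM in SOX10-positive cells, against 8.59 and 3.02 CPM in CHGA/TH/STMN2 cells and 6.66 and 7.92 CPM in all other cells. Its log2 fold change was 5.14 (SE 0.37, adjusted p = 0.00051), and 5.91 without the female library.

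ZEB2, a zinc finger repressor needed for crest formation, and SOX5, which modulates SOX10 targets, were raised as well. ZEB2 reached 808 CPM in female and 886 CPM in male SOX10-positive cells, against 58.3 and 104 CPM in CHGA/TH/STMN2 cells and 102 and 139 CPM in all other cells (log2 fold changes 3.56, SE 0.28, and 3.02, SE 0.25). SOX5 was at 302 and 269 CPM, against 27.0 and 36.2 CPM and 44.1 and 44.6 CPM in the same order. The libraries of SOX10-positive cells lay above those of both other groups in each case.

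Glial genes stood beside these crest genes. PMP2, a fatty acid carrier of Schwann cells, was at 206 and 143 CPM in female and male SOX10-positive cells, against 3.07 CPM and 0 UMIs in CHGA/TH/STMN2 cells and 0.355 and 0.160 CPM in all other cells. FABP7, the brain-type fatty acid carrier of early glia, was at 1397 and 860 CPM, against 112 and 117 CPM and 114 and 114 CPM in the same order. PMP2 UMIs were found in 46 of the 78 cells and FABP7 UMIs in 74.

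CNP, an enzyme of myelinating glia, and MOXD1, a monooxygenase of migrating crest cells in chick, were 17.1-fold and 15.6-fold higher than in CHGA/TH/STMN2 cells and 14.8-fold and 13.9-fold higher than in all other cells. CDH19, a cadherin of Schwann cell precursors, was at 25.5 and 30.5 CPM, and INSC, a gene of cell polarity, at 28.2 and 15.2 CPM, and neither had a UMI in CHGA/TH/STMN2 cells. They were at least 27.2-fold and 22.5-fold higher against a level of 3 UMIs over that group. MBP, the basic protein of later myelin, was at 9.41 and 3.81 CPM, against 8.59 and 6.79 CPM in CHGA/TH/STMN2 cells (adjusted p = 0.98).

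The label of neural crest cells was set beside these markers. The cells and lists were chosen with earlier results of these data known, so this is no independent check. Beside FOXD3, TFAP2A and ZEB2, NGFR, the neurotrophin receptor widely used to sort crest cells, was at 9.41 and 7.62 CPM in SOX10-positive cells, against 0.614 and 0.754 CPM in CHGA/TH/STMN2 cells and 0.289 and 0.309 CPM in all other cells (adjusted p = 0.014 and 0.0015). It was seen in 10 of the 78 cells. ERBB3, S100B, SOX2 and L1CAM were among the list genes with no match in the files. The 5 list genes that fell against CHGA/TH/STMN2 cells were GAP43, NCAM1, TFAP2B, GFRA3 and OLFML3. GAP43 and NCAM1 are shared with neurons. OLFML3, lower also against all other cells, had log2 fold changes against CHGA/TH/STMN2 cells of -3.67 in all, -2.23 without the female and -5.09 without the male library, and lost its call against the 69 cells with the higher sum (-1.31, adjusted p = 0.16).

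TFAP2B set the 2 comparisons apart. It was at 68.6 CPM in female and 93.4 CPM in male SOX10-positive cells, against 473 and 415 CPM in CHGA/TH/STMN2 cells and 1.62 and 3.14 CPM in all other cells. This factor of sympathoadrenal crest derivatives thus fell 5.67-fold against CHGA/TH/STMN2 cells (adjusted p = 0.0047) and was 32.0-fold higher than in all other cells (adjusted p = 0.00029). Its UMIs were in 41 of the 78 cells.

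**Figure D3:**
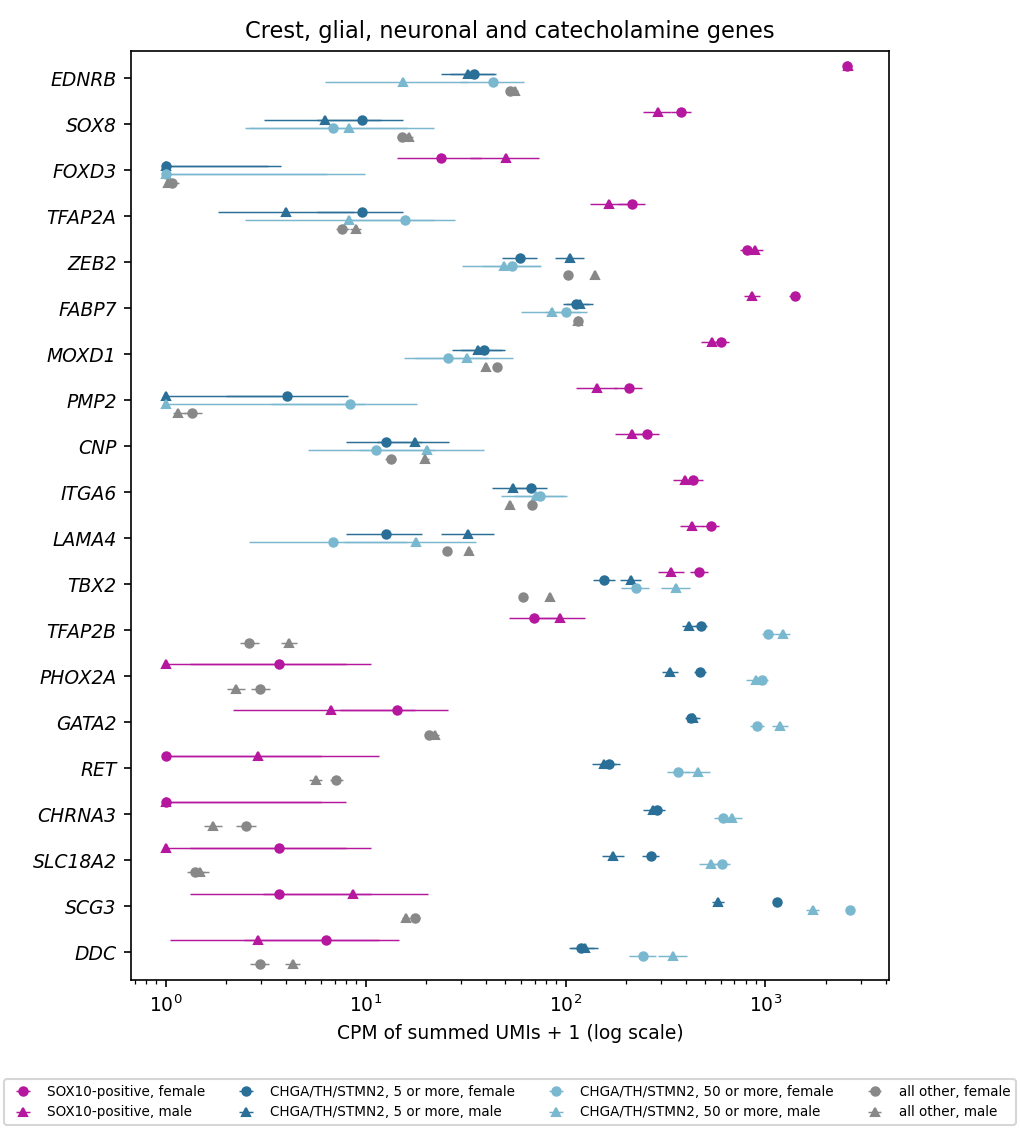
Levels of 20 genes in CPM plus 1 (horizontal log axis) in SOX10-positive cells, in CHGA/TH/STMN2 cells with a sum of 5 or more and of 50 or more UMIs, and in all other cells, with circles for the female and triangles for the male library and 95% exact Poisson intervals as bars. From EDNRB to LAMA4 the SOX10-positive points lie right of all others, and from TFAP2B to DDC they lie left of the CHGA/TH/STMN2 points.

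Among receptors and ligands, 32 of 39 list genes were in the files and 27 were tested, of which 10 were higher and 6 lower than in CHGA/TH/STMN2 cells (median log2 fold change -0.78, all genes -0.09) and 11 higher and 4 lower than in all other cells (median 0.45, all genes -0.07). Of all genes, 9.59% were higher and 12.4% lower in the first comparison and 12.7% and 13.7% in the second. EDNRB was at 2544 CPM (interval 2431 to 2662) in female and 2573 CPM (2438 to 2714) in male SOX10-positive cells. Its level was 33.8 and 31.7 CPM in CHGA/TH/STMN2 cells and 51.5 and 55.1 CPM in all other cells. The receptor was thus 77.9-fold higher than in CHGA/TH/STMN2 cells (log2 fold change 6.45, SE 0.12, adjusted p = 2.9e-06) and 47.8-fold higher than in all other cells (5.79, SE 0.11, adjusted p = 3.1e-06), and 75 of the 78 cells had its UMIs. Its ligand gene EDN3 was at 2.69 and 9.53 CPM, against 15.3 and 27.9 CPM in CHGA/TH/STMN2 cells and 17.4 and 21.5 CPM in all other cells. EDN3 did not pass the test (adjusted p = 0.083 and 0.086), but did with the library as a block (adjusted p = 0.031 and 0.028) or with 3 SOX10 UMIs asked for (0.046 and 0.048).

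The receptors for glial cell line-derived neurotrophic factors were split. GFRA1, the co-receptor for GDNF, was at 129 and 111 CPM in SOX10-positive cells, against 43.0 and 30.9 CPM in CHGA/TH/STMN2 cells and 24.8 and 22.3 CPM in all other cells, and it rose in both comparisons (adjusted p = 0.003 and 0.00052). GFRA2, the co-receptor for neurturin, was at 34.9 and 57.2 CPM, against 20.9 and 19.6 CPM and 15.7 and 19.1 CPM, and its log2 fold change of 1.31 against CHGA/TH/STMN2 cells passed the test (adjusted p = 0.025), while that of 1.35 against the 69 cells with the higher sum did not (adjusted p = 0.052). RET, the signalling receptor that both serve, had 0 UMIs in female and 1 UMI in male SOX10-positive cells, against 268 and 206 UMIs in CHGA/TH/STMN2 cells (164 and 155 CPM, adjusted p = 0.00052). The co-receptor UMIs thus stood in cells with nearly none of RET.

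ADGRG6, a receptor that Schwann cells need for myelination in zebrafish and mouse, was at 76.6 and 114 CPM in female and male SOX10-positive cells, against 11.0 and 5.28 CPM in CHGA/TH/STMN2 cells and 21.7 and 17.5 CPM in all other cells (log2 fold changes 3.65, SE 0.38, and 2.46, SE 0.29). Without the female library the first was 4.59, and without the male library 2.97. CXCR4, the receptor for CXCL12 that guides migrating cells, was at 16.1 and 21.0 CPM, against 132 and 118 CPM in CHGA/TH/STMN2 cells, and fell by 2.62 on the log2 scale (SE 0.22). Against all other cells CXCR4 did not pass (log2 fold change 0.78), but was higher with DESeq2 (adjusted p = 0.0499). NRG1, the neuregulin ligand of Schwann cell precursors, had 1 UMI in SOX10-positive cells and 27 in CHGA/TH/STMN2 cells (adjusted p = 0.084, and 0.036 with the library as a block). Receptors and ligands of the crest thus moved in both directions.

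Among the receptor and ligand genes were several of the Notch pathway, which keeps progenitors from differentiating. The receptor gene NOTCH1 was at 333 and 255 CPM in SOX10-positive cells, against 61.4 and 72.4 CPM in CHGA/TH/STMN2 cells and 92.8 and 107 CPM in all other cells (log2 fold changes 2.32, SE 0.19, and 1.77, SE 0.17). The target gene HEY1 was at 39.0 and 38.1 CPM, against 2.45 and 1.51 CPM and 3.26 and 4.52 CPM, and the ligand gene JAG1 at 67.2 and 61.0 CPM, against 17.2 and 22.6 CPM and 24.0 and 19.8 CPM. HEY1 and JAG1 passed the test in both comparisons, with adjusted p between 0.000935 and 0.00439. DLL1, another ligand, passed against all other cells (33.6 and 22.9 CPM, against 10.3 and 7.62 CPM, adjusted p = 0.028), but not when 3 SOX10 UMIs were asked for (adjusted p = 0.14). Against CHGA/TH/STMN2 cells, at 5.52 and 15.8 CPM, DLL1 did not pass (log2 fold change 1.64, adjusted p = 0.074), but did with the library as a block (0.042), with DESeq2 (0.031), with a sum of at least 10 (0.021) and against the 69 cells with the higher sum (log2 fold change 4.04, adjusted p = 0.012). HES1, another target, was at 175 and 82.0 CPM, against 63.8 and 91.3 CPM in CHGA/TH/STMN2 cells (log2 fold change 0.94, adjusted p = 0.10, and 0.036 with the block). HES1 was higher than in the 69 cells with the higher sum (log2 fold change 2.34, adjusted p = 0.0058) and passed with a sum of at least 10 (0.027). The target HEY2 had 0 UMIs in female and 3 in male SOX10-positive cells, against 17.8 and 9.05 CPM in CHGA/TH/STMN2 cells (adjusted p = 0.13), and was lower there when 3 SOX10 UMIs were asked for (adjusted p = 0.024). All 3 of its UMIs lay in 1 cell with 2 SOX10 UMIs, which that minimum left out, so 0 UMIs remained.

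SOX8, which like SOX10 belongs to the SoxE group, was at 378 CPM (281 UMIs) in female and 288 CPM (151 UMIs) in male SOX10-positive cells, against 8.59 and 5.28 CPM in CHGA/TH/STMN2 cells and 14.2 and 15.5 CPM in all other cells. It was 47.9-fold and 22.9-fold higher (adjusted p = 0.00016 and 7.4e-05) and was seen in 71 of the 78 cells. SOX9, the third SoxE gene, had 0 UMIs in female and 17 in male SOX10-positive cells, of which 1 cell held 13. Its levels were 35.6 and 137 CPM in CHGA/TH/STMN2 cells and 47.2 and 129 CPM in all other cells. SOX9 did not pass the test (adjusted p = 0.21 and 0.18), but did with the library as a block (0.0039 and 0.0016). Of 7 tested SOX genes, 3 were higher than in either other group (SOX5, SOX6 and SOX8). SOX11 fell against CHGA/TH/STMN2 cells and SOX3, with 1 UMI in the 78 cells, against all other cells. Of all genes, 9.59% were higher and 12.4% lower in the first comparison and 12.7% and 13.7% in the second. SOX5 is also counted among the crest genes and SOX8 among the melanocyte and enteric genes. With cells thinned to 2000 UMIs, SOX6 lost its call against all other cells (adjusted p = 0.056) and SOX11 its call against CHGA/TH/STMN2 cells (0.11).

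Regulators and structural genes of autonomic neurons fell against CHGA/TH/STMN2 cells. Of 22 list genes in the files 17 were tested, 14 were lower and 2 higher, and the median log2 fold change was -4.13. Against all other cells 4 were higher and 3 lower, with a median of 0.09. The shares over all genes were 9.59% higher and 12.4% lower against CHGA/TH/STMN2 cells and 12.7% and 13.7% against all other cells. All genes had medians of -0.09 and -0.07. PHOX2A was at 2.69 CPM and 0 UMIs in the female and male SOX10-positive cells, against 469 and 332 CPM in CHGA/TH/STMN2 cells and 1.97 and 1.25 CPM in all other cells (adjusted p = 0.00061 and 0.94). GATA2 was at 13.4 and 5.72 CPM, against 424 and 432 CPM and 19.9 and 21.2 CPM, and ISL1 at 5.38 and 1.91 CPM, against 158 and 137 CPM and 1.41 and 1.43 CPM. These 3 factors of sympathetic neurons fell against CHGA/TH/STMN2 cells (log2 fold changes of GATA2 and ISL1 -5.23 and -5.07, and -6.09 and -6.01 without the female library). Against all other cells GATA2 did not pass (adjusted p = 0.093), but was lower with 3 SOX10 UMIs (0.021), with 4000 UMIs per cell (0.02) and with library size scaling (0.043). ISL1 did not pass there either (adjusted p = 0.087), but was higher with DESeq2 (0.038).

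STMN3 and RTN1, genes of neurites and of the endoplasmic reticulum, gave 2 UMIs and 0 UMIs in the 78 cells, against 1052 and 441 UMIs in CHGA/TH/STMN2 cells. RTN1 was at least 63.1-fold lower, taken at 3 UMIs over the SOX10-positive cells. DCX, a microtubule protein of young neurons, and TLX3, a neuronal homeobox factor, lay between both groups. DCX was at 20.2 and 26.7 CPM, against 88.4 and 63.4 CPM in CHGA/TH/STMN2 cells and 8.18 and 5.06 CPM in all other cells (adjusted p = 0.034 and 0.018). TLX3 was at 16.1 and 5.72 CPM, against 92.1 and 64.9 CPM and 2.82 and 3.39 CPM, and its call against all other cells (adjusted p = 0.027) was lost when 3 SOX10 UMIs were asked for (adjusted p = 0.15). The log2 fold change of TLX3 against all other cells was 2.12, and 0.95 without the female library, while DCX was 3.54-fold higher over both libraries, with a log2 fold change of 2.59 without the female one. Against CHGA/TH/STMN2 cells TLX3 gave -2.59, and -3.35 without the female library. With cells thinned to 2000 UMIs, DCX (adjusted p = 0.69 and 0.21) and TLX3 (0.073 and 0.25) kept their directions but lost both calls.

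TBX2, a T-box repressor, was at 465 and 337 CPM in female and male SOX10-positive cells, against 155 and 210 CPM in CHGA/TH/STMN2 cells and 60.4 and 82.7 CPM in all other cells. TBX2 rose in both comparisons (adjusted p = 0.013 and 0.00076), but not against the 69 cells with the higher sum, which had 223 and 354 CPM (adjusted p = 0.16).

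None of the catecholamine and secretory genes rose against CHGA/TH/STMN2 cells. Of 25 list genes in the files 22 were tested and 18 were lower, with a median log2 fold change of -4.89. The list holds CHGA, TH and STMN2, which entered no test. Against all other cells 2 were higher and 4 lower (median -1.10). Of all genes, 12.7% were higher and 13.7% lower there (median -0.07), and 12.4% were lower against CHGA/TH/STMN2 cells (median -0.09). The 25 genes summed to 272 CPM in female and 339 CPM in male SOX10-positive cells, against 11290 and 8248 CPM in CHGA/TH/STMN2 cells and 290 and 340 CPM in all other cells. These sums include CHGA, TH and STMN2, so part of their difference between the groups followed from the rule that chose the cells. SLC18A2, the vesicle transporter of monoamines, had 2 UMIs in SOX10-positive cells and 660 in CHGA/TH/STMN2 cells. The nicotinic receptor gene CHRNA3 had 0 UMIs, at least 118-fold lower than the 285 and 272 CPM of CHGA/TH/STMN2 cells, taken at 3 UMIs over the SOX10-positive cells. Others were above 0, such as CHGB, a granule protein, with 60 UMIs in the 78 cells. CHGB did not pass the test against all other cells (log2 fold change 0.37, and -0.42 after thinning to 2000 UMIs). Of the 25 list genes, 21 were below their level in free RNA in SOX10-positive cells.

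The 2 genes of this list that were higher than in all other cells were SLC6A2, the noradrenaline transporter, and SCG5, a chaperone of secretory granules. SLC6A2 was at 25.5 and 15.2 CPM in SOX10-positive cells, against 34.4 and 20.4 CPM in CHGA/TH/STMN2 cells (adjusted p = 0.79) and 0.895 and 0.458 CPM in all other cells (32.6-fold, adjusted p = 0.0019). SCG5 was at 92.7 and 70.5 CPM, against 199 and 150 CPM in CHGA/TH/STMN2 cells, where it was higher, and 16.5 and 17.7 CPM in all other cells. SLC6A2 UMIs were found in 14 and SCG5 UMIs in 50 of the 78 cells.

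The 10 genes with the largest rises against CHGA/TH/STMN2 cells, among those with at least 100 CPM in both libraries, were PMP2, PPP1R1C, FSTL3, EDNRB, ITPR3, SOX8, DLX2, ADCYAP1, SPON1 and SCRG1. Against all other cells NKAIN4 took the place of SOX8 and the other 9 recurred, but both comparisons share the SOX10-positive sums. DLX2, a homeobox factor of crest cells, was at 292 and 303 CPM in SOX10-positive cells, against 9.21 and 6.04 CPM in CHGA/TH/STMN2 cells and 10.1 and 7.14 CPM in all other cells (log2 fold changes 5.42, SE 0.29, and 5.31, SE 0.24). ADCYAP1, the precursor of the neuropeptide PACAP, was at 425 and 381 CPM, against 12.9 and 8.30 CPM and 2.53 and 1.71 CPM. SPON1, a secreted matrix protein named F-spondin that turns crest cells away in chick, was at 1441 and 1327 CPM, against 28.2 and 55.1 CPM and 38.0 and 35.3 CPM. Each of the 3 was seen in at least 67 of the 78 cells.

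PPP1R1C, an inhibitor of protein phosphatase 1, was at 200 and 227 CPM, against 1.23 and 3.02 CPM in CHGA/TH/STMN2 cells and 0.526 and 0.469 CPM in all other cells. ITPR3, a calcium channel of the endoplasmic reticulum, was 65.2-fold and 49.7-fold higher (log2 fold change against CHGA/TH/STMN2 cells 6.16, and 6.96 without the female library). FSTL3, a secreted antagonist of activin, was at 142 and 101 CPM, against 1.84 and 0.754 CPM and 2.12 and 0.969 CPM. SCRG1 was at 129 and 112 CPM, against 4.91 and 2.26 CPM and 0.421 and 0.128 CPM. These genes were picked for large rises and for high levels in SOX10-positive cells, so their distance from the other groups followed from that choice.

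The 10 largest falls against CHGA/TH/STMN2 cells, among genes with at least 100 CPM in both libraries of those cells, were CHRNA3, RTN1, GAL, PHOX2A, STMN3, TBX20, GAP43, RET, CYB561 and GCH1. None of them had more than 4 UMIs in the 78 SOX10-positive cells together. GAL, the precursor of galanin, was at 1.34 CPM and 0 UMIs in SOX10-positive cells, against 418 and 309 CPM in CHGA/TH/STMN2 cells. GCH1, which makes the cofactor of TH, and CYB561, the cytochrome of chromaffin granules, had 1 UMI each, against 453 and 469 UMIs.

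Matrix and adhesion genes rose in part. Of 28 list genes in the files 27 were tested. Against CHGA/TH/STMN2 cells 12 were higher and 2 lower (median 0.46), beside 9.59% and 12.4% of all genes (median -0.09). Against all other cells 10 were higher and 6 lower (median 0.22), beside 12.7% and 13.7% of all genes (median -0.07). LAMA4, a laminin chain of basement membranes, was at 531 and 427 CPM in SOX10-positive cells, against 11.7 and 31.7 CPM in CHGA/TH/STMN2 cells and 24.5 and 31.9 CPM in all other cells (log2 fold change 4.68, SE 0.38, against CHGA/TH/STMN2 cells, 3.90 without the female and 5.68 without the male library). ITGA6, a laminin receptor subunit, was at 435 and 395 CPM, against 66.3 and 53.6 CPM and 66.8 and 52.0 CPM. CDH7, a cadherin of migrating crest cells in chick, was at 199 and 234 CPM, against 13.5 and 12.1 CPM and 18.7 and 19.7 CPM. A laminin chain, a laminin receptor subunit and a crest cadherin were thus raised in both comparisons.

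COL9A1, a collagen chain known from cartilage, was at 48.4 and 36.2 CPM, against 3 UMIs in CHGA/TH/STMN2 cells and 2.72 and 2.85 CPM in all other cells (15.5-fold, adjusted p = 0.00043). CDH2, N-cadherin, was at 355 and 395 CPM, against 398 and 326 CPM in CHGA/TH/STMN2 cells and 477 and 352 CPM in all other cells, and passed neither test. CDH11, a mesenchymal cadherin, was at 1.34 and 13.3 CPM, against 40.5 and 58.8 CPM and 72.3 and 91.7 CPM, and fell in both comparisons (log2 fold changes -2.78 and -3.47, without the female library -1.99 and -2.59, without the male library -4.74 and -5.53). Against the 69 cells with the higher sum, which had 2.94 and 4.82 CPM, the direction of CDH11 turned (log2 fold change 0.88, adjusted p = 0.60).

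Genes of melanocytes and of enteric crest cells were few. Of 12 list genes in the files 7 were tested, and MITF and SOX8 were higher in each comparison. RET was lower than in CHGA/TH/STMN2 cells and KIT than in all other cells. The list had median log2 fold changes of -0.36 and 0.16 (all genes -0.09 and -0.07). Of all genes, 9.59% were higher and 12.4% lower in the first comparison and 12.7% and 13.7% in the second. MITF, the melanocyte master regulator, was at 96.8 and 62.9 CPM, against 47.9 and 30.9 CPM in CHGA/TH/STMN2 cells and 24.5 and 24.1 CPM in all other cells (adjusted p = 0.033 and 0.0044). The call was lost against the 69 cells with the higher sum, which had 76.4 and 55.4 CPM (adjusted p = 0.41). The pigment enzyme genes TYR, DCT and TYRP1 had 0 UMIs, which allows up to 2.36 CPM each, as did KIT, the receptor of migrating melanoblasts.

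At full depth, many genes of cell division were called higher. All 22 list genes in the files were tested, and 14 were higher and 0 lower than in CHGA/TH/STMN2 cells (median log2 fold change 1.06), 12 higher and 0 lower than in all other cells (median 0.89) and 19 higher and 0 lower than in the 69 cells with the higher sum (median 1.08). Over all genes 9.59%, 12.7% and 12.2% were higher in these comparisons, in the same order. TOP2A, the topoisomerase of dividing cells, was at 594 CPM in female and 379 CPM in male SOX10-positive cells, against 171 and 182 CPM in CHGA/TH/STMN2 cells and 200 and 232 CPM in all other cells (adjusted p = 0.0044 and 0.0055). MKI67, which encodes the Ki-67 antigen, was at 461 and 362 CPM, against 142 and 154 CPM and 195 and 212 CPM. The helicase gene MCM2, at 59.1 and 80.1 CPM, against 57.1 and 67.9 CPM and 77.9 and 88.1 CPM, passed neither test, but was higher than in the 69 cells with the higher sum (log2 fold change 1.15, adjusted p = 0.013) and passed with a sum of at least 10 (0.04).

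SOX10-positive cells were also the deepest of the 3 groups, and most calls of division genes were lost when depth was made equal. With every cell thinned to 2000 UMIs, 19 of the 22 genes could be tested, and 1 (TOP2A) was called against CHGA/TH/STMN2 cells and 2 (TOP2A and CDK1) against all other cells. Of the calls made at full depth, 11 of 14 lost the call and 2 could not be tested against CHGA/TH/STMN2 cells, and 10 of 12 lost it against all other cells. Over all genes, calls fell from 2212 of 10073 at full depth to 374 of 4946 after thinning against CHGA/TH/STMN2 cells. Against all other cells they fell from 2651 to 536. Higher calls alone were 966 and 1275 of 10073 genes at full depth in the 2 comparisons, beside 14 and 12 of the 22 division genes. After thinning they were 189 and 279 of 4946, beside 1 and 2 of the 19 division genes. The median log2 fold changes of the 19 division genes were 0.68 and 0.55 after thinning, against 1.07 and 0.91 at full depth. After thinning, 17 of the 19 were above 0 in each comparison, where the median of all genes was -0.07 in both. BIRC5, an inhibitor of apoptosis that acts in mitosis, had a log2 fold change of 0.15 against CHGA/TH/STMN2 cells after thinning and of 1.34 before, while MKI67 had 1.48 after (adjusted p = 0.059) and 1.65 before.

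Single cells were compared at the same thinned depth. At least 2 UMIs of division genes remained in 76.7% of female (61.4 to 88.2) and 82.9% of male SOX10-positive cells (66.4 to 93.4), against 52.4% (43.3 to 61.5) and 60.0% (up to 69.4) of CHGA/TH/STMN2 cells and 53.3% and 62.2% of all other cells. The intervals of SOX10-positive and CHGA/TH/STMN2 cells overlapped, narrowly in the female library. Those of all other cells (52.2 to 54.5 and 61.2 to 63.2) did not overlap with the SOX10-positive ones in either library. Of the 69 cells with the higher sum, 42.9% of female (27.7 to 59.0) and 40.7% of male cells (22.4 to 61.2) had 2 such UMIs, again without overlap. Without thinning the shares were 100% and 97.1% of SOX10-positive cells, 93.5% and 96.2% of CHGA/TH/STMN2 cells and 89.0% and 93.1% of all other cells.

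**Figure D4:**
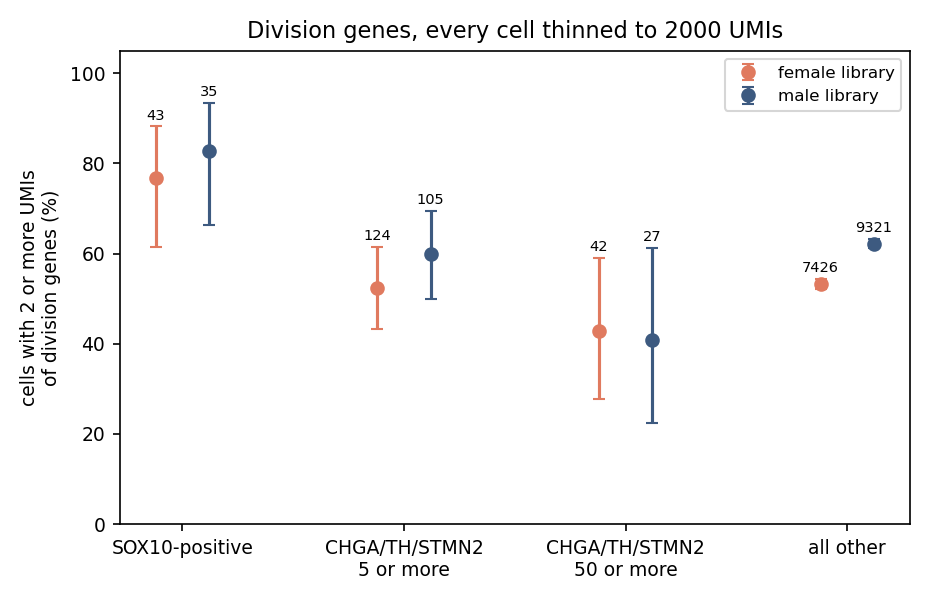
Share of cells with at least 2 UMIs of division genes after thinning to 2000 UMIs (vertical axis, percent) in SOX10-positive cells, in CHGA/TH/STMN2 cells with sums of 5 or more and 50 or more UMIs, and in all other cells, by library, with 95% exact binomial intervals and the number of cells above each point. SOX10-positive cells stand at 76.7% and 82.9%, and the other groups between 40.7% and 62.2%.

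Markers of the other gonadal types were low in SOX10-positive cells. All 7 germ cell and all 6 tested epithelial genes fell against all other cells, as did 4 of 5 interstitial, 2 of 6 supporting and steroidogenic, 3 of 5 endothelial, 4 of 5 macrophage and both erythrocyte genes. Of all genes tested, 13.7% were lower there. Each gene of these lists was also below its level in free RNA. The germ cell genes summed to 8.06 CPM in female and 21.0 CPM in male SOX10-positive cells, against 549 and 666 CPM in all other cells, and PIWIL1 was at 0 UMIs. The interstitial genes summed to 140 and 290 CPM, against 987 and 1089 CPM, and the 2 hemoglobin genes to 629 and 543 CPM, against 24167 and 19434 CPM. COL1A1, an interstitial collagen at 102 and 145 CPM in SOX10-positive cells, fell against CHGA/TH/STMN2 cells (215 and 244 CPM, adjusted p = 0.022) but was higher than in the 69 cells with the higher sum (29.4 and 14.4 CPM, adjusted p = 0.001).

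SOX10-positive cells differed among themselves. The 10 genes whose UMIs per cell varied most beyond counting error, among genes with at least 0.5 UMIs per cell, were HBAD, HSPA8, TMSB4X, HMGB2, DSP, HSP90AA1, MYT1, TOP2A, KPNA2 and SPON1. Their variance, after scaling to equal depth, was between 11.0 (SPON1) and 77.5 times (HBAD) that of counting. TOP2A, HMGB2 and KPNA2 are genes of dividing cells, and TOP2A UMIs were in 41 of the 78 cells, up to 49 in one. DSP, a junction protein of epithelia, was in 16 cells, and 2 of the 3 cells with at least 10 DSP UMIs had at most 1 EDNRB UMI. MYT1, a zinc finger factor of neuronal commitment, was in 13 cells, with up to 16 UMIs.

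With 1 library per sex, levels of female and male SOX10-positive cells could only be set against counting error. Of 66 list genes with at least 50 CPM in a library, 11 (16.7%) had intervals that did not overlap, against 284 of 3681 genes (7.72%) in all, and 9 of the 11, against 122 of the 284, were higher in the female library. FABP7 was at 1397 and 860 CPM, HES1, a Notch target, at 175 and 82.0 CPM, and TOP2A at 594 and 379 CPM in female and male cells. SST, the precursor of somatostatin, went the other way, with 6.72 CPM (2.18 to 15.7) in female and 99.1 CPM (74.0 to 130) in male cells and a log2 ratio female over male of -3.15 after 5 CPM were added to both. COL1A2 was also lower in female cells (22.9 CPM, 17 UMIs) than in male cells (89.6 CPM, 47 UMIs). In both libraries together, 30 COL1A2 UMIs lay in 6 of the 13 cells with 2 SOX10 UMIs. Those 13 included the 4 cells with 1 EDNRB UMI or none, 3 of them male. Whether such cells account for the difference was not tested.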

How the data were processed

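Single-cell RNA of pooled gonads was measured in 1 library per sex. The authors deposited 1 table of raw UMI counts per gene and barcode, which was made before cell calling with Cell Ranger (5.0.0) and the bTaeGut1_v1 assembly, and 9155 of its 20511 genes have no symbol. Whether reads were subsampled when the libraries were joined is not given in the sources used here. Barcode suffixes were assigned to the sexes from the study's supplement. The members and gene lists were chosen with earlier results of these data known.

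Cells had at least 2000 UMIs and 200 genes. UMI sums of the 3 cell groups in each library (6 sums) were fitted together with edgeR 4.0.16 under R 4.3.3. The fit used filterByExpr, TMM, the quasi-likelihood test and Benjamini-Hochberg adjustment over all tested genes, with a threshold of 0.05. Adjusted p-values are from this fit unless another setting or cell group is named with them. SOX10, CHGA, TH and STMN2 entered the fit without a test. Levels are CPM of the sums with 95% exact Poisson intervals, and shares carry exact binomial intervals. The counting intervals ignore differences between embryos. A group at 0 UMIs was given 3 UMIs for a bound. Thinning used a fixed seed. Doublets were not removed. The free RNA profile came from barcodes with at most 100 UMIs, and its highest share from HBAD and HBAA. The test was also run on simulated counts with the same spread in all 6 sums and no difference between the sexes. That run cannot show how the test behaves where the spread differs between cell groups.

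Both groups of a library came from the same pool, so the library pairs the sums. The female over male log2 ratios of SOX10-positive cells correlated across genes, which are not independent replicates, with those of CHGA/TH/STMN2 cells (Pearson r = 0.132) and of all other cells (r = 0.169). The fit was therefore repeated with library as a blocking factor.

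Named are genes of the lists, the 10 largest rises per comparison and the 10 largest falls against CHGA/TH/STMN2 cells (adjusted p of at most 0.05 and 100 CPM in both libraries of the higher group), and the 10 genes that varied most among SOX10-positive cells. The lists hold 250 entries, of which 204 matched a symbol in the files. Alternatives were other minimums of SOX10, of the CHGA sum and of UMIs per cell, DESeq2 1.42.0, library size in place of TMM, no filter on low counts, the block, free RNA subtraction, thinning, cells with markers of other types left out and each library left out. Added after the data were seen were a CHGA sum of at least 50 UMIs and leaving out barcodes found in both libraries. Some genes that met these rules are not reported here.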

Additional observations from a re-analysis of the deposited data

Results flagged for a closer look

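Among the 382 single gene results, 3, each of a different gene, were flagged because the SOX10-positive cells moved in opposite directions in the 2 libraries. HES1, a Notch target, was at 175 CPM in female SOX10-positive cells, against 105 CPM in all other female cells, and at 82.0 CPM in male SOX10-positive cells, against 118 CPM in all other male cells, with a log2 ratio female over male of 1.05 within SOX10-positive cells. HBAD, a hemoglobin chain, was at 500 CPM in female SOX10-positive cells, against 326 CPM in female CHGA/TH/STMN2 cells, and at 391 CPM in male SOX10-positive cells, against 518 CPM in male CHGA/TH/STMN2 cells, with a ratio of 0.35. HSP90AA1, a heat shock chaperone, was at 3696 CPM in female SOX10-positive cells, against 3183 CPM in all other female cells, and at 3376 CPM in male SOX10-positive cells, against 3704 CPM in all other male cells, with a ratio of 0.13. With 1 library per sex these differences between the sexes were not tested. HBAD and HSP90AA1 were also among the genes whose UMIs per cell varied most beyond counting error in SOX10-positive cells. The 13 cells with 2 SOX10 UMIs held 239 HBAD UMIs, beside 372 in all female and 205 in all male SOX10-positive cells. Whether a few cells account for the flagged differences was not tested.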

How the results depend on the processing

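Thinning every cell to 2000 UMIs left 4946 testable genes and lowered the counts to 189 higher and 185 lower against CHGA/TH/STMN2 cells and 279 higher and 257 lower against all other cells, and library size in place of TMM gave 838 higher against all other cells. Thinned cells passed the SOX10 minimum in 4 of the female library (0.0527%) and 7 of the male library (0.0740%), and a minimum of 1 SOX10 UMI was met by 66 (0.869%) and 77 (0.814%). The share of cells with 2 division UMIs moved without thinning to 100% and 97.1% (SOX10-positive, female and male), 93.5% and 96.2% (CHGA/TH/STMN2) and 89.0% and 93.1% (all other), and with 1 division UMI to 88.4% and 94.3%, 71.8% and 79.0%, and 75.4% and 82.1%. Fewer cells and genes thus passed after thinning. Thinning lowers the counts, removes the difference in depth and gives each cell the same weight, and which of these mattered was not tested.

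With the library as a block, which pairs the sums of a pool, edgeR called 1238 higher and 1638 lower against CHGA/TH/STMN2 cells and 1629 higher and 1817 lower against all other cells, and of 382 single gene results 40 gained and 1 lost a call. DESeq2 called 1291 higher and 1406 lower, and 1654 higher and 1450 lower. Of 5142 single gene values with a test under an alternative, 4750 kept their direction and side of the threshold, 140 lost a call, 170 gained one, 7 called ones turned and 75 uncalled ones changed sign. Of 764 values with a library left out, 722 kept their direction and 42 uncalled ones changed sign. Against cells with a sum of 50 or more, the log2 fold changes of VIP (1.46), CDH11 (0.88), KRT18 (0.34), COL1A2 (0.45), COL1A1 (2.46) and DCN (0.13) turned, and without cells bearing markers of other types that of CDH5 (0.32) did. Of these 7 values COL1A1 alone passed the test (adjusted p = 0.001). CDH5 is itself one of the endothelial markers, which took out 3 CHGA/TH/STMN2 cells and 0 SOX10-positive cells. A shift of CDH5 in that direction was thus built into the rule. Thinning cost 38 single gene calls against CHGA/TH/STMN2 cells, 11 of them division genes, and 25 against all other cells, 10 of them division genes, and TBX2 (adjusted p = 0.066, against CHGA/TH/STMN2 cells) and GFRA2 (0.92 and 0.24, both comparisons) were others. The causes were not tested. A library left out gave values without a test, since 1 sum per group remained.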
